A study of Mus musculus with 6 samples.

Results

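Fibroblasts and preadipocytes are the stromal cells of adipose tissue, and 10 genes used to mark them were followed here in mouse interscapular brown adipose tissue (iBAT) that lacked or kept the RNA methyltransferase subunit WTAP in brown adipocytes. The 10 markers are Pdgfra, Pdgfrb, Dpt, Dpp4, Pi16, Cd34, Ly6a, Cd55, Bmper and Thy1. They were taken by symbol from the deposited table, which lists 55703 genes, and all 10 were found. RNA-seq was carried out on whole iBAT of C57BL/6 mice at 8 weeks of age, with 3 libraries from Wtap flox/flox control mice and 3 from Wtap-BKO mice. Both groups carried floxed Wtap alleles, and the Wtap-BKO mice in addition carried 1 copy of Ucp1-iCre. Because iCre is expressed from the Ucp1 gene, Wtap was targeted in Ucp1-expressing adipocytes and not in the stromal cells that these markers describe. A group with iCre and unfloxed Wtap was not analysed here. Values are FPKM (fragments per unit of exon length and of library size), and in whole tissue fewer cells of a type and less RNA per cell cannot be told apart.

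Fat-forming progenitors sit among the fibroblasts of adipose tissue and are commonly recognised by the receptor PDGFRα. In mouse subcutaneous fat, cells with DPP4, PI16 and CD55 lie in the interstitium and give rise to more committed preadipocytes, which have lost these markers. CD34, SCA1 (encoded by Ly6a) and THY1 are used together to sort adipose stromal cells, but vessels or blood cells also carry them, and PDGFRβ is shared with pericytes.

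The libraries held between 15979694 and 19005123 reads assigned to genes. Wtap itself, the targeted gene, was at 8.00, 8.63 and 8.16 FPKM in the flox/flox libraries and at 11.8, 12.3 and 12.7 FPKM in the libraries labelled Wtap-BKO. It was thus higher in the latter (log2 change 0.56 ± 0.09 SE, limma adjusted p = 0.0160), against the direction of the label, although this value sums reads over the whole gene and does not read the deleted exon by itself. The paper reports, from immunoblots, strongly reduced WTAP protein in iBAT of Wtap-BKO mice of this age, which is a measure of protein and not of whole-gene RNA. The call of Wtap RNA as higher was lost in 4 of the 6 fits that left out 1 library, those without any 1 control or without Wtap-BKO replicate 3 (adjusted p up to 0.0670). Ucp1, which encodes the uncoupling protein that makes brown fat thermogenic, fell from 1769 ± 264 to 358 ± 119 FPKM (SD, n = 3 each, limma adjusted p = 0.00495). Flox/flox replicate 2 and Wtap-BKO replicate 3 held skeletal muscle transcripts, with 768 and 1220 FPKM summed over 10 muscle markers against 31.5 to 44.4 FPKM in the other libraries, and of these markers Acta1 and Tnni2 had the smallest p and were not called. Changes below are given as libraries labelled Wtap-BKO minus flox/flox, and folds as the ratio of the group means.

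Of the 10 markers, 2 rose in the libraries labelled Wtap-BKO, none fell and 8 did not pass the test. The 2 were Dpt, which encodes the extracellular matrix protein dermatopontin, and Cd55, which encodes a complement inhibitor anchored in the cell membrane. Across all 13507 genes tested, 6.10% were called higher and 3.88% lower, at a Benjamini-Hochberg adjusted p under 0.05 in limma. These calls comprised 824 higher and 524 lower genes, and 1113 and 310 when libraries were scaled by library size alone. At an unadjusted p under 0.05, 5 markers were higher and 0 lower, beside 2116 higher and 1781 lower of the 13507 genes. Limma with voom weights called 3 markers higher and 0 lower, beside 857 higher and 587 lower genes. The median log2 change of the 10 markers was 0.71, against 0.00 over all genes tested. This median includes Dpp4, which reached the filter of 0.5 FPKM only through the libraries labelled Wtap-BKO, where it was higher. For 4 markers (Pdgfra, Dpt, Pi16 and Cd55) every library labelled Wtap-BKO lay above every flox/flox library, an arrangement seen in 18.2% of the genes tested, and for none did every such library lie below, as in 16.9%.

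The sequences before the start sites of Dpt and Cd55 are shown because these were the 2 markers that passed the test. Both are the 250 bases upstream of the RefSeq start on GRCm38.p6, written 5′ to 3′ on the gene's own strand. Dpt lies on the plus strand (chr1:164796413-164796662) and Cd55 on the minus strand (chr1:130462745-130462994), and the last bases printed for Dpt fall inside the slightly longer gene model of the deposited table. Capitals mark matches to the GC box.
Dpt: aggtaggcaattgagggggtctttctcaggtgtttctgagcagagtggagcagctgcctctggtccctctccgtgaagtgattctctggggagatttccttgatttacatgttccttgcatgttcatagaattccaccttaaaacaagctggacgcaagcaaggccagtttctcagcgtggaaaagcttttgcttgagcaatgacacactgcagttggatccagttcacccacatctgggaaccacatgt
Cd55: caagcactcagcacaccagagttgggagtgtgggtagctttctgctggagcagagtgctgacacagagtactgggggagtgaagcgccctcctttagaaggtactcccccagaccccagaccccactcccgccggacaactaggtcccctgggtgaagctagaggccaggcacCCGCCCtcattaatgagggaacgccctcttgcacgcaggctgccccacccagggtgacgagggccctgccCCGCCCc
Such windows were found for 7 of the 10 markers, and 4 motifs were searched in them on both strands. The GC box (GGGCGG, the binding motif of SP factors) occurred in the windows of Bmper and Cd55 and in 32.7% of all 32851 promoters. In Cd55 it was present 2 times, both on the opposite strand, beginning 77 and 7 bases before the start. The TATA box (TATAAA, 12.4% of promoters) and the TEAD motif (GGAATG, 12.6%) each occurred in the window of Dpp4 alone, and the AP-1 motif (TGANTCA, 6.75%) in none of the 7. Dpt and Cd55 thus shared none of these letters within 250 bases.

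**Figure D1:**
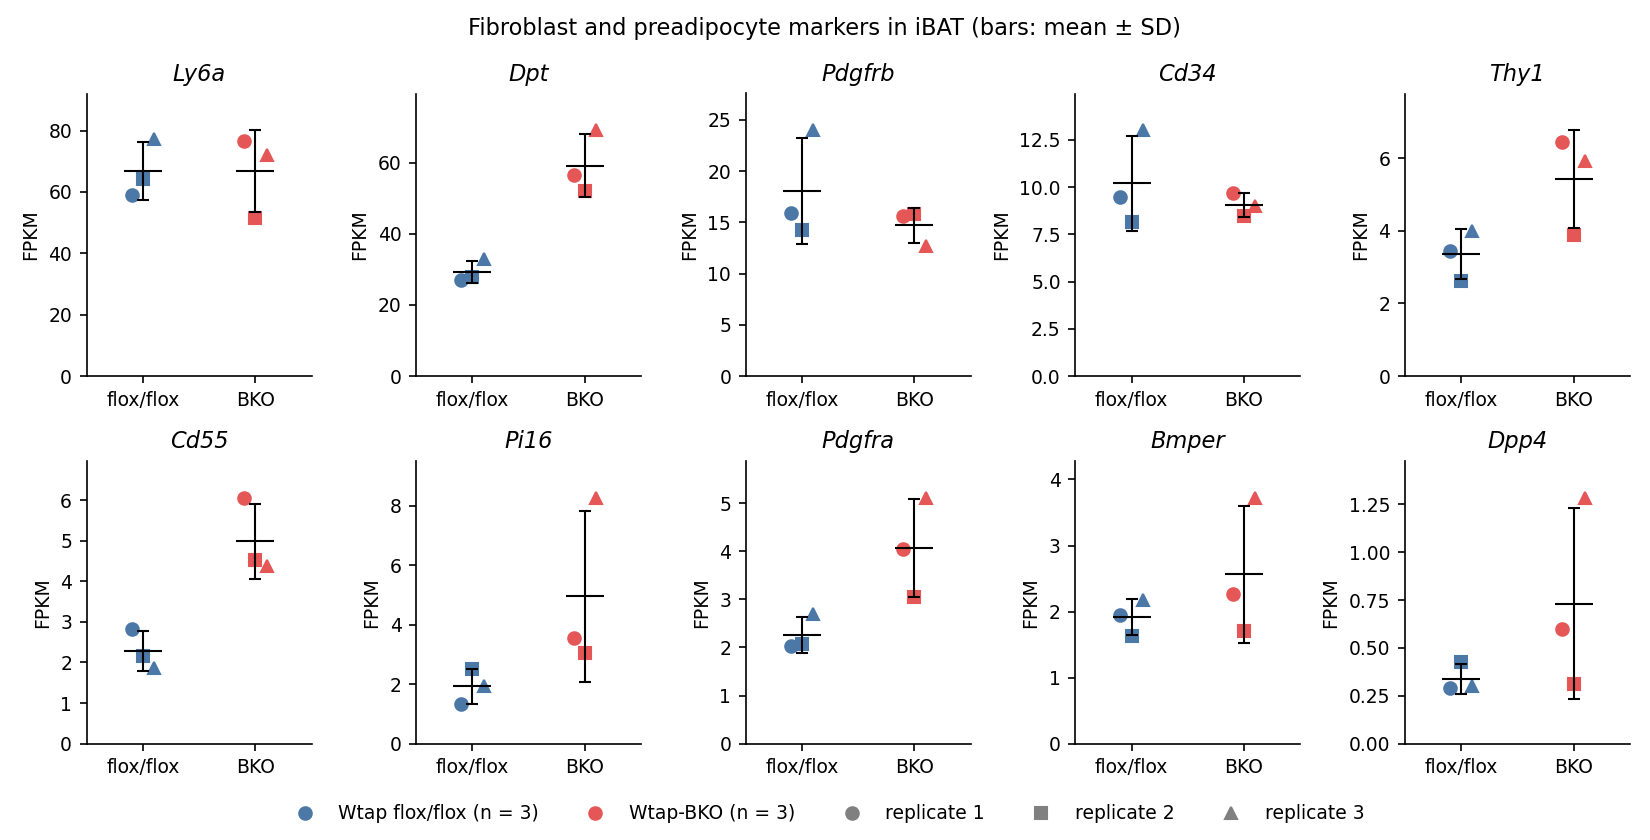
FPKM of each of the 10 markers (y axis, from 0) in the 3 flox/flox and 3 Wtap-BKO libraries, with symbols for the replicate number and bars for the mean ± SD; panels run from the most to the least abundant marker. Dpt, Cd55, Pi16 and Pdgfra show no overlap between groups, whereas Ly6a, Pdgfrb and Cd34 overlap throughout.

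The 2 PDGF receptors, which bind platelet-derived growth factors and signal as tyrosine kinases, had different values. Pdgfra (ENSMUSG00000029231, chr5:75152292-75198215, plus strand, 23 exons) was at 2.03, 2.08 and 2.70 FPKM in the flox/flox libraries and at 4.04, 3.06 and 5.11 FPKM in the libraries labelled Wtap-BKO. The groups did not overlap, and the mean was 1.79-fold higher (2.27 ± 0.374 against 4.07 ± 1.03 FPKM, SD, n = 3 each). The log2 change was 0.80 ± 0.21 SE (95% CI 0.29 to 1.30), with a limma adjusted p of 0.0607, so Pdgfra did not pass the test. It passed with voom weights (adjusted p = 0.0495) and without Wtap-BKO replicate 2 (adjusted p = 0.0454), and the 6 fits that each left out 1 library gave adjusted p-values from 0.0454 to 0.171.

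Pdgfrb (ENSMUSG00000024620, chr18:61045150-61085061, plus strand, 23 exons), the receptor also made by pericytes, was at 15.9, 14.3 and 24.0 FPKM in the flox/flox libraries. It was at 15.6, 15.8 and 12.7 FPKM in the libraries labelled Wtap-BKO. The groups overlapped, flox/flox replicate 3 standing well above the other 5 libraries, and the log2 change of -0.27 ± 0.21 SE (95% CI -0.75 to 0.22, limma adjusted p = 0.437) did not pass the test.

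The matrix protein gene Dpt (ENSMUSG00000026574, chr1:164796644-164824266, plus strand, 4 exons) had the most regular difference. It was at 27.1, 28.0 and 32.9 FPKM in the flox/flox libraries and at 56.6, 51.9 and 69.0 FPKM in the libraries labelled Wtap-BKO, resting on 785 to 2230 reads per library. Its mean rose 2.02-fold, from 29.3 ± 3.15 to 59.2 ± 8.87 FPKM (SD, n = 3 each). The log2 change was 1.01 ± 0.14 SE (95% CI 0.68 to 1.33, limma adjusted p = 0.0104). The call held in 5 of the 6 fits that left out 1 library, and without flox/flox replicate 2 the adjusted p was 0.0501.

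Bmper (ENSMUSG00000031963, chr9:23223076-23485200, plus strand, 15 exons), which encodes a secreted protein that binds bone morphogenetic proteins, was at 1.94, 1.63 and 2.18 FPKM in the flox/flox libraries. It was at 2.26, 1.70 and 3.72 FPKM in the libraries labelled Wtap-BKO, so that replicates 1 and 3 lay above every control, replicate 1 by a small margin. The log2 change was 0.34 ± 0.28 SE (95% CI -0.33 to 1.01, limma adjusted p = 0.469). Without Wtap-BKO replicate 3 the ratio of means moved from 1.34 to 1.04.

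The 3 markers of interstitial progenitors, Cd55, Pi16 and Dpp4, had ratios of group means of 2.19, 2.56 and 2.16, of which only Cd55 passed the test. Without Wtap-BKO replicate 3 these ratios were 2.32, 1.71 and 1.34. Cd55 (ENSMUSG00000026399, chr1:130439027-130462744, minus strand, 10 exons) was at 2.83, 2.15 and 1.87 FPKM in the flox/flox libraries and at 6.06, 4.52 and 4.39 FPKM in the libraries labelled Wtap-BKO. The groups stood apart, on 143 to 559 reads per library, and the mean rose from 2.28 ± 0.496 to 4.99 ± 0.926 FPKM (SD, n = 3 each). The log2 change was 1.10 ± 0.20 SE (95% CI 0.63 to 1.57, limma adjusted p = 0.0213). The call held in 3 of the 6 fits that left out 1 library, and the adjusted p was 0.0777 without flox/flox replicate 2, 0.0597 without flox/flox replicate 3, 0.0518 without Wtap-BKO replicate 3 and 0.0504 with no filter on low values.

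Pi16 (ENSMUSG00000024011, chr17:29317680-29330593, plus strand, 7 exons), which encodes peptidase inhibitor 16, was at 1.34, 2.52 and 1.94 FPKM in the flox/flox libraries and at 3.54, 3.06 and 8.26 FPKM in the libraries labelled Wtap-BKO. Although the groups did not overlap, Wtap-BKO replicate 3 was 2.50 times the mean of the other 2 libraries of its group, and without it the ratio of means was 1.71. The log2 change of 1.21 ± 0.40 SE (95% CI 0.27 to 2.15, limma adjusted p = 0.0991) did not pass the test.

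Dpp4 (ENSMUSG00000035000, chr2:62330073-62412231, minus strand, 26 exons), which encodes the membrane dipeptidase that cleaves incretin hormones, was the least abundant marker. It was at 0.288, 0.428 and 0.301 FPKM in the flox/flox libraries and at 0.599, 0.312 and 1.28 FPKM in the libraries labelled Wtap-BKO, on 30 to 152 reads. The groups overlapped, and Wtap-BKO replicate 3 was 2.82 times the mean of the other 2 of its group. With a flox/flox mean of 0.339 FPKM, Dpp4 reached the filter of 0.5 FPKM over all libraries only through the libraries labelled Wtap-BKO. Its log2 change was 0.76 ± 0.48 SE (95% CI -0.37 to 1.89, limma adjusted p = 0.340), and the ratio of means was 1.34 without Wtap-BKO replicate 3.

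The 3 surface antigens used for sorting stromal cells did not pass the test in either direction. Ly6a (ENSMUSG00000075602, chr15:74994877-74998031, minus strand), which encodes SCA1 and was the most abundant marker, was at 58.9, 64.3 and 77.4 FPKM in the flox/flox libraries. It was at 76.7, 51.6 and 71.9 FPKM in the libraries labelled Wtap-BKO. Its groups had nearly the same mean, 66.9 ± 9.49 and 66.7 ± 13.3 FPKM (SD, n = 3 each), with a log2 change of -0.01 ± 0.18 SE (95% CI -0.44 to 0.41, limma adjusted p = 0.970) that was 0.07 when libraries were scaled by library size alone. This interval does not reach the values of Dpt or Cd55.

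Cd34 (ENSMUSG00000016494, chr1:194938819-194961279, plus strand, 8 exons), which encodes a sialomucin of stromal, endothelial and blood progenitor cells, was at 9.48, 8.14 and 13.0 FPKM in the flox/flox libraries and at 9.71, 8.47 and 9.01 FPKM in the libraries labelled Wtap-BKO. The groups overlapped, with a log2 change of -0.15 ± 0.18 SE (95% CI -0.56 to 0.27, limma adjusted p = 0.634). Thy1 (ENSMUSG00000032011, chr9:44043384-44048579, plus strand, 4 exons), which encodes a glycoprotein of stromal cells, neurons and T cells, was at 3.45, 2.62 and 4.0 FPKM in the flox/flox libraries. It was at 6.44, 3.89 and 5.92 FPKM in the libraries labelled Wtap-BKO, the lowest of which lay just under the highest control. Thy1 had a ratio of means of 1.61 and a log2 change of 0.66 ± 0.23 SE (95% CI 0.11 to 1.22), with a limma adjusted p of 0.119.

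**Figure D2:**
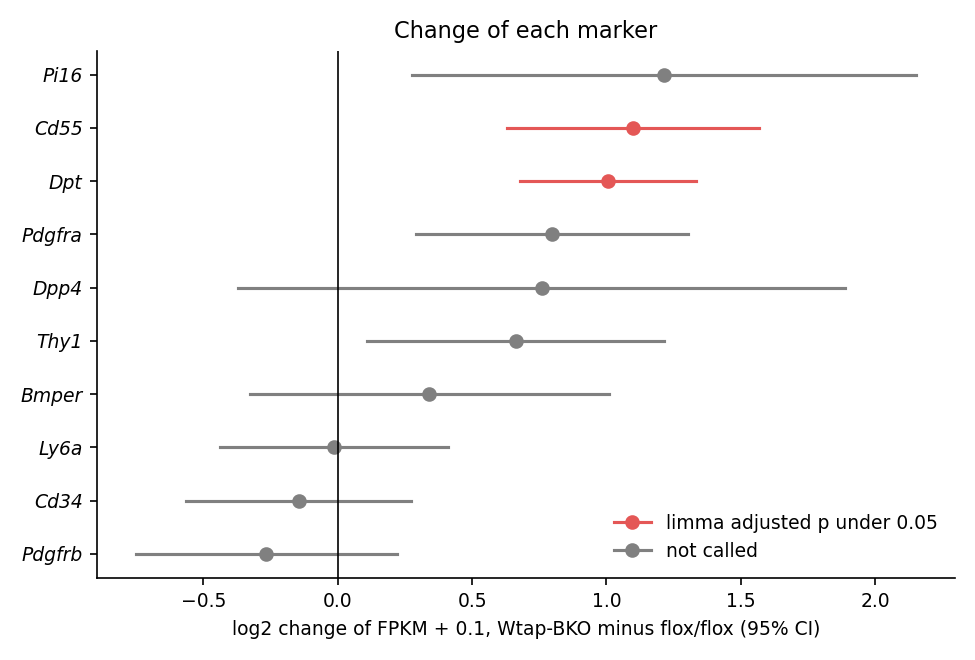
Log2 change of each marker (x axis, FPKM + 0.1, libraries labelled Wtap-BKO minus flox/flox) with its 95% confidence interval from limma, ordered by size. Dpt and Cd55, in red, passed the adjusted test; the intervals of Pi16, Pdgfra and Thy1 also lie above 0 but these markers did not pass after adjustment over 13507 genes.

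The markers differed in how much the libraries of 1 group varied. Among the libraries labelled Wtap-BKO the coefficient of variation was 68.3% for Dpp4, 58.0% for Pi16 and 40.7% for Bmper, whereas it was 6.85% for Cd34. Wtap-BKO replicate 3, a library with muscle transcripts, was the highest of its group for 5 of the 10 markers, replicate 1 for 4 and replicate 2 for 1. Over all genes tested, replicate 3 was the highest of its group for 30.4%. In the control group, flox/flox replicate 3 was the highest for 7 of the 10 markers, against 31.8% of all genes tested. With flox/flox replicate 2 and Wtap-BKO replicate 3 both left out, the ratio of means was 1.81 for Dpt, 2.25 for Cd55, 1.5 for Pdgfra, 2.01 for Pi16, 1.55 for Dpp4 and 0.963 for Bmper. In that fit of 2 libraries against 2, limma called none of the 10 markers, with adjusted p-values of 0.139 for Dpt and 0.174 for Cd55, and 3 markers were at an unadjusted p under 0.05. It also called 0 of all 13507 genes in either direction, with 1294 higher and 923 lower at an unadjusted p under 0.05.

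To set the markers against each other within a library, each was divided by Pdgfra. Relative to Pdgfra, 4 markers stood lower in every library labelled Wtap-BKO and 1 marker higher, while 56.8% of all other genes tested stood lower in this way and 0.926% higher. Because Pdgfra itself was higher in that group, the median difference over these genes was -0.80. The log2 ratio of Pdgfrb to Pdgfra was 2.91, 2.73 and 3.10 in the flox/flox libraries and 1.93, 2.33 and 1.29 in the libraries labelled Wtap-BKO, a difference of -1.06. That of Cd34 was 2.17, 1.92 and 2.23 in the former and 1.24, 1.44 and 0.81 in the latter, a difference of -0.94. That of Ly6a went from 4.80, 4.89 and 4.79 to 4.21, 4.03 and 3.79, a difference of -0.81. For these 3 markers and for Bmper (difference -0.46) the ratio was lower in every library labelled Wtap-BKO than in any control, and for Dpt (difference 0.21) it was higher in every one. The 4 lower markers of 9 are thus no more than the share among all genes. The ratios of Pi16, Cd55, Thy1 and Dpp4 overlapped between groups. The exact permutation test, two-sided, gave p = 0.1 for each of the 5 ratios without overlap, the smallest p that 3 libraries against 3 allow, and 0.18 after Benjamini-Hochberg adjustment over the 9 ratios, so none passed. With the mean of Pdgfra, Dcn and Lum as the reference, Bmper overlapped between groups and the other 4 did not.

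**Figure D3:**
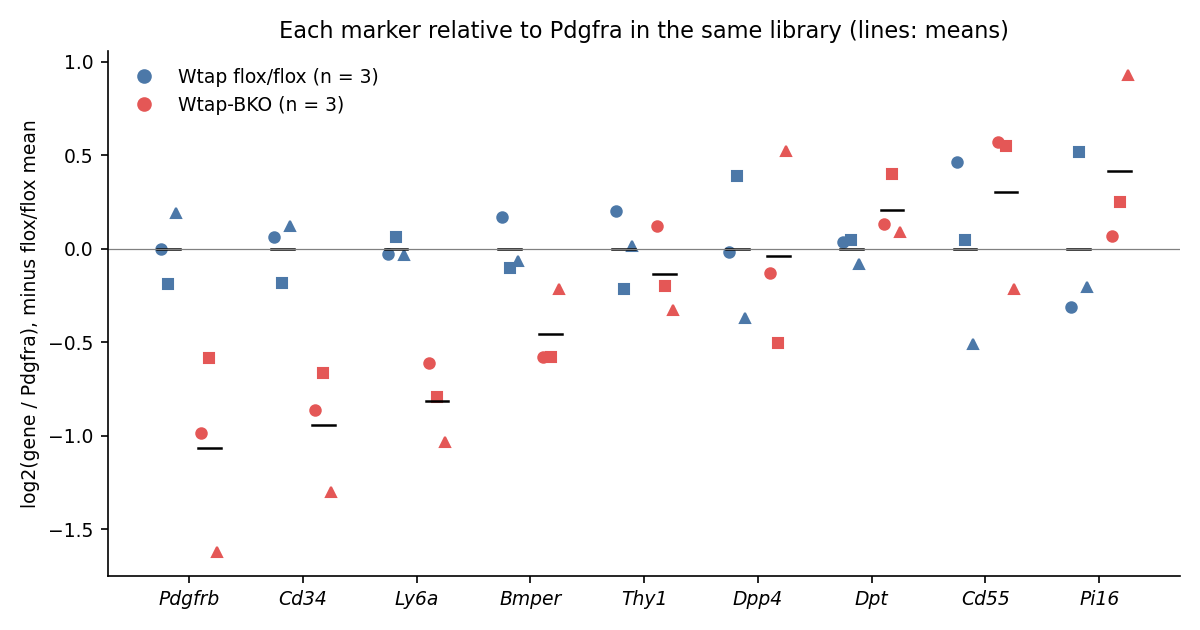
Log2 ratio of each of 9 markers to Pdgfra in the same library (y axis), shifted so that the flox/flox mean is 0, with blue points for the 3 flox/flox and red points for the 3 Wtap-BKO libraries and short lines for the means. Pdgfrb, Cd34, Ly6a and Bmper lie below the controls in every Wtap-BKO library, as 56.8% of all genes do, and Dpt lies above.

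Among the 4 PDGF ligands, 1 rose and 1 fell. Pdgfc, a ligand of PDGFRα, was at 0.976, 0.639 and 0.821 FPKM in the flox/flox libraries and at 1.82, 1.70 and 2.42 FPKM in the libraries labelled Wtap-BKO (log2 change 1.19 ± 0.22 SE, limma adjusted p = 0.0244). Pdgfd, a ligand of PDGFRβ, was at 15.3, 13.5 and 12.2 FPKM in the former and at 7.12, 10.2 and 7.65 FPKM in the latter (log2 change -0.72 ± 0.16 SE, limma adjusted p = 0.0390). The groups of neither gene overlapped, and the other ligand genes, Pdgfa and Pdgfb, did not pass the test. The call of Pdgfc was lost without any 1 flox/flox library or without Wtap-BKO replicate 3 (adjusted p up to 0.0782), and that of Pdgfd without any 1 library but Wtap-BKO replicate 2 (up to 0.124).

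Of 12 genes for proteins that bind the products of the markers, 8 were tested, of which Adgre5 and Bmp4 were called higher and none lower. Adgre5, which encodes CD97, the adhesion receptor that binds CD55, rose from 13.4 ± 0.739 to 19.6 ± 2.27 FPKM (SD, n = 3 each, log2 change 0.54 ± 0.12 SE, limma adjusted p = 0.0326). Bmp4, a bone morphogenetic protein bound by BMPER, was at 0.270, 0.219 and 0.338 FPKM in the flox/flox libraries and at 1.05, 0.696 and 1.97 FPKM in the libraries labelled Wtap-BKO (log2 change 1.73 ± 0.40 SE, limma adjusted p = 0.0398). Bmp4, like Dpp4, reached the filter only through the latter group, so its call carries no weight as a count, and its adjusted p was 0.0610 with a pseudocount of 1. Both calls were lost in each fit without 1 library other than Wtap-BKO replicate 2, with adjusted p-values up to 0.111 for Adgre5 and 0.119 for Bmp4. Of 8 paralogs of the markers, 7 were tested and none passed, with 1 higher and 0 lower at an unadjusted p under 0.05 and 0 called by voom. The smallest p among them belonged to Pdgfrl (0.377 ± 0.235 and 0.801 ± 0.245 FPKM) and Dpp9 (4.70 ± 0.584 and 5.96 ± 0.902 FPKM). Pdgfrl, the 1 higher paralog, reached the filter only through the libraries labelled Wtap-BKO, so this count carries no weight. Cd55b, the near copy of Cd55, held at most 0.0378 FPKM in any library, so few reads were counted to that copy.

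Other lists of stromal genes gave the following counts. Of 10 genes common to fibroblasts, 2 rose (Loxl1 and Serpinf1), none fell and 9 had a positive log2 change, with a median of 0.57. Loxl1, a lysyl oxidase-like enzyme that cross-links elastin, went from 5.56 ± 0.640 to 10.1 ± 1.87 FPKM (SD, n = 3 each, limma adjusted p = 0.0274). Of 13 genes of interstitial progenitors other than the markers themselves, 10 were tested, and Pcolce2, Clec3b and Sema3c were called higher and none lower, with a median log2 change of 0.59. Sema3c, a secreted semaphorin, had a flox/flox mean of 0.434 FPKM against 1.30 FPKM in the libraries labelled Wtap-BKO. It reached the filter only through the latter group, so its call carries no weight as a count, and the median includes it. Sema3c was called in 1 of the 6 fits that left out 1 library, that without Wtap-BKO replicate 1 (adjusted p in the others up to 0.126). Pcolce2, which enhances procollagen processing, was at 1.01, 1.08 and 1.41 FPKM in the flox/flox libraries and at 3.89, 3.79 and 4.57 FPKM in the libraries labelled Wtap-BKO. This 3.5-fold difference (log2 change 1.73 ± 0.17 SE, limma adjusted p = 0.00486) exceeded that of any of the 10 markers in ratio of means and was called in all 6 fits that left out 1 library. Of 8 genes of committed preadipocytes, 7 were tested and 1 rose, the chemokine gene Cxcl14 (from 11.7 ± 0.930 to 23.5 ± 5.93 FPKM, limma adjusted p = 0.0281), with a median log2 change of 0.33, and 1 gene, Dlk1, had no read in any library.

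Zfp423, which encodes a transcription factor of preadipocytes, was at 1.77 ± 0.882 and 4.09 ± 1.03 FPKM without passing (limma adjusted p = 0.0772). None of 5 genes of F3-positive stromal cells, a population that restrains fat formation, passed in limma, nor any by voom, with 2 higher and 1 lower at an unadjusted p under 0.05. The 2 with the smallest p were Fmo2 (3.20 ± 0.685 and 7.48 ± 3.11 FPKM) and Clec11a (0.755 ± 0.146 and 1.30 ± 0.104 FPKM). Likewise none of 7 tested myofibroblast genes passed by limma or voom, with 0 higher and 1 lower at an unadjusted p under 0.05, and their median log2 change was 0.09. Here the smallest p belonged to Col12a1 (2.44 ± 1.16 and 1.13 ± 0.351 FPKM) and Loxl2 (1.91 ± 0.333 and 2.78 ± 0.647 FPKM). Leaving out 1 library ended several of these calls. Loxl1 was called only without Wtap-BKO replicate 2 and Cxcl14 only without Wtap-BKO replicate 1 (adjusted p in the other fits up to 0.0936 and 0.0997). Clec3b, which encodes tetranectin, went from 29.6 ± 1.32 to 51.4 ± 12.2 FPKM and Serpinf1, which encodes a secreted serpin, from 15.0 ± 0.823 to 23.9 ± 4.35 FPKM. The call of Clec3b was lost without any 1 flox/flox library (up to 0.113) and that of Serpinf1 without any of these or Wtap-BKO replicate 3 (up to 0.111).

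**Figure D4:**
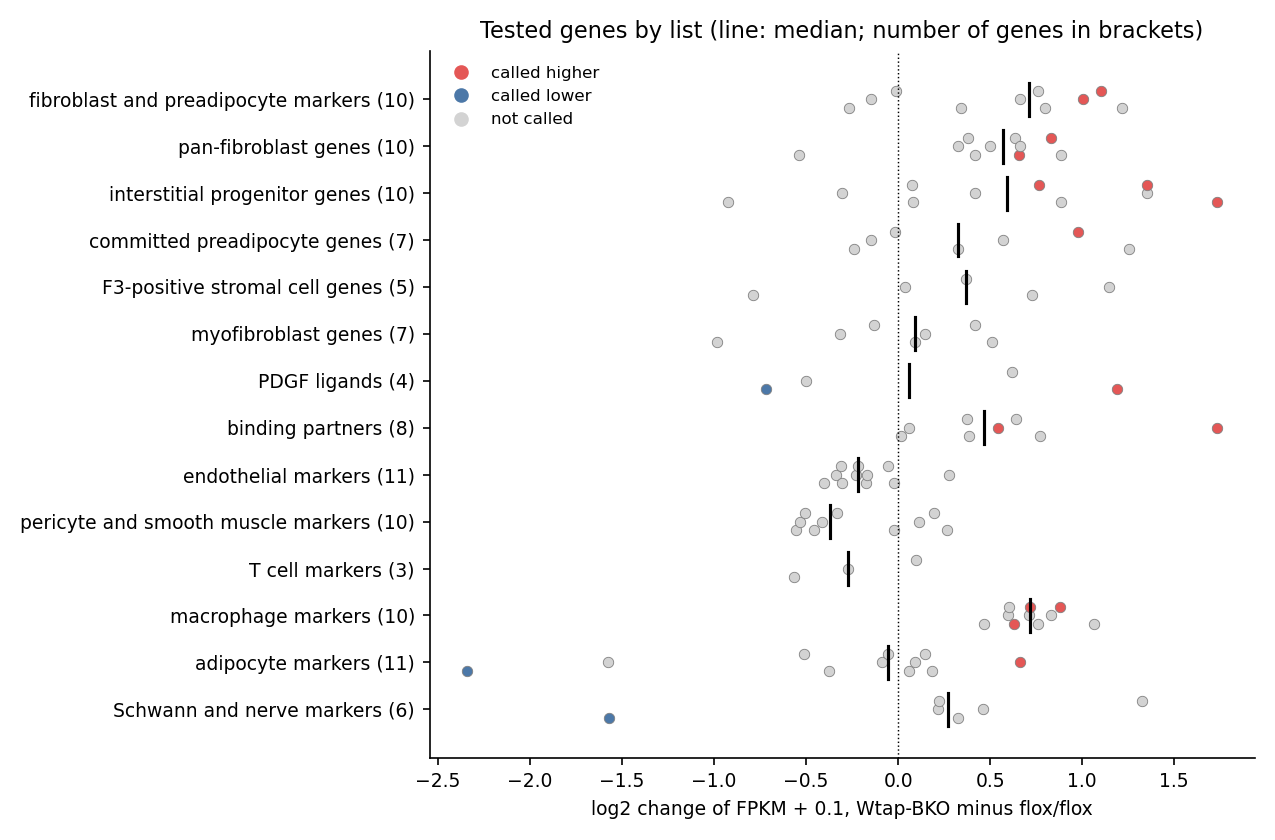
Log2 change of each tested gene (x axis, FPKM + 0.1, libraries labelled Wtap-BKO minus flox/flox) by list, with a black line at the median of the list, the number of tested genes in brackets and colour for the limma call. The 10 markers, with Dpp4 included, have a median of 0.71, the macrophage list one of 0.71 and the pericyte and smooth muscle list one of -0.37.

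Markers of other cells that can carry some of the same genes had other values. Of 11 endothelial markers, which share Cd34 and Ly6a, none passed in limma or voom (0 at an unadjusted p under 0.05), and 1 had a positive log2 change, with a median of -0.22. Flt1, a receptor for vascular endothelial growth factor, was at 13.4 ± 2.57 and 10.5 ± 0.199 FPKM, and Egfl7 at 52.2 ± 9.26 and 39.7 ± 8.83 FPKM. Their summed level was 348 to 458 FPKM in the flox/flox libraries and 251 to 403 FPKM in the libraries labelled Wtap-BKO. Of 11 markers of pericytes and smooth muscle, which share Pdgfrb, 10 were tested and none passed in limma or voom, with 0 higher and 2 lower at an unadjusted p under 0.05 and a median of -0.37, 3 of the 10 having a positive change. Their sums did not overlap, at 240 to 296 FPKM in the former and 201 to 211 FPKM in the latter. Rgs5, a regulator of G protein signalling that marks pericytes, was at 136 ± 26.1 and 92.0 ± 12.2 FPKM (SD, n = 3 each, limma adjusted p = 0.0813), the bulk of the gap between the sums, and Abcc9, a potassium channel subunit, at 9.75 ± 1.66 and 7.08 ± 1.16 FPKM. Of 6 T cell markers, which share Thy1, 3 were tested and none passed in limma or voom (0 at an unadjusted p under 0.05), and they summed to 2.12 to 4.66 FPKM in the former and 1.29 to 3.91 FPKM in the latter. Among these Cd8a was at 0.715 ± 0.425 and 0.459 ± 0.282 FPKM and Lck at 0.858 ± 0.141 and 0.783 ± 0.447 FPKM. Of 5 mesothelial markers, 1 (Lrrn4, 1.38 ± 0.0817 and 2.01 ± 0.603 FPKM) was tested and did not pass, and they summed to at most 2.71 FPKM in any library.

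Of 11 macrophage markers, 10 were tested, 3 rose and none fell, with a median log2 change of 0.71. Their sums did not overlap, at 161 to 241 FPKM in the flox/flox libraries and 244 to 370 FPKM in the libraries labelled Wtap-BKO. Csf1r, the receptor for macrophage colony-stimulating factor, went from 5.66 ± 0.637 to 9.35 ± 0.463 FPKM (SD, n = 3 each, limma adjusted p = 0.0162). Of the 6 fits without 1 library, 3 lost this call, those that left out control replicate 1, control replicate 2 and Wtap-BKO replicate 3 (adjusted p up to 0.0658). Mrc1, the mannose receptor, went from 3.90 ± 0.243 to 6.13 ± 0.884 FPKM (limma adjusted p = 0.0325), a call held only without Wtap-BKO replicate 2 (up to 0.112 in the other fits). Of 11 adipocyte markers, 1 rose, 1 fell and 5 had a positive log2 change, with a median of -0.06. Adipoq, which encodes adiponectin, rose from 805 ± 69.2 to 1271 ± 101.2 FPKM (SD, n = 3 each, limma adjusted p = 0.0259; called only without Wtap-BKO replicate 1, up to 0.101 in the other fits), and the gene that fell was Ucp1. Their sums were 8191 to 9462 FPKM in the flox/flox libraries and 7104 to 7292 FPKM in the libraries labelled Wtap-BKO. The group means of Ucp1, 1769 and 358 FPKM, are part of these sums. Of 6 tested Schwann and nerve markers 1 fell, S100b, a gene also expressed in adipocytes, from 33.9 ± 1.80 to 11.9 ± 4.68 FPKM (limma adjusted p = 0.0202), a call lost without any 1 control (up to 0.0741). By comparison, the 10 fibroblast and preadipocyte markers summed to 123 to 160 FPKM and 144 to 191 FPKM, which overlapped. Ly6a, the most abundant marker, held 66.9 and 66.7 FPKM of these sums in the group means, so their overlap does not speak for the other markers. Between groups, the macrophage sums thus stood apart upward and the pericyte and adipocyte sums downward, whereas the endothelial and T cell sums overlapped. Each downward gap rested mostly on 1 gene, Rgs5 for pericytes and Ucp1 for adipocytes, and does not speak for the other genes of its list. These sums do not count cells, and the part of other cell types in the results for the markers was not tested.

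**Figure D5:**
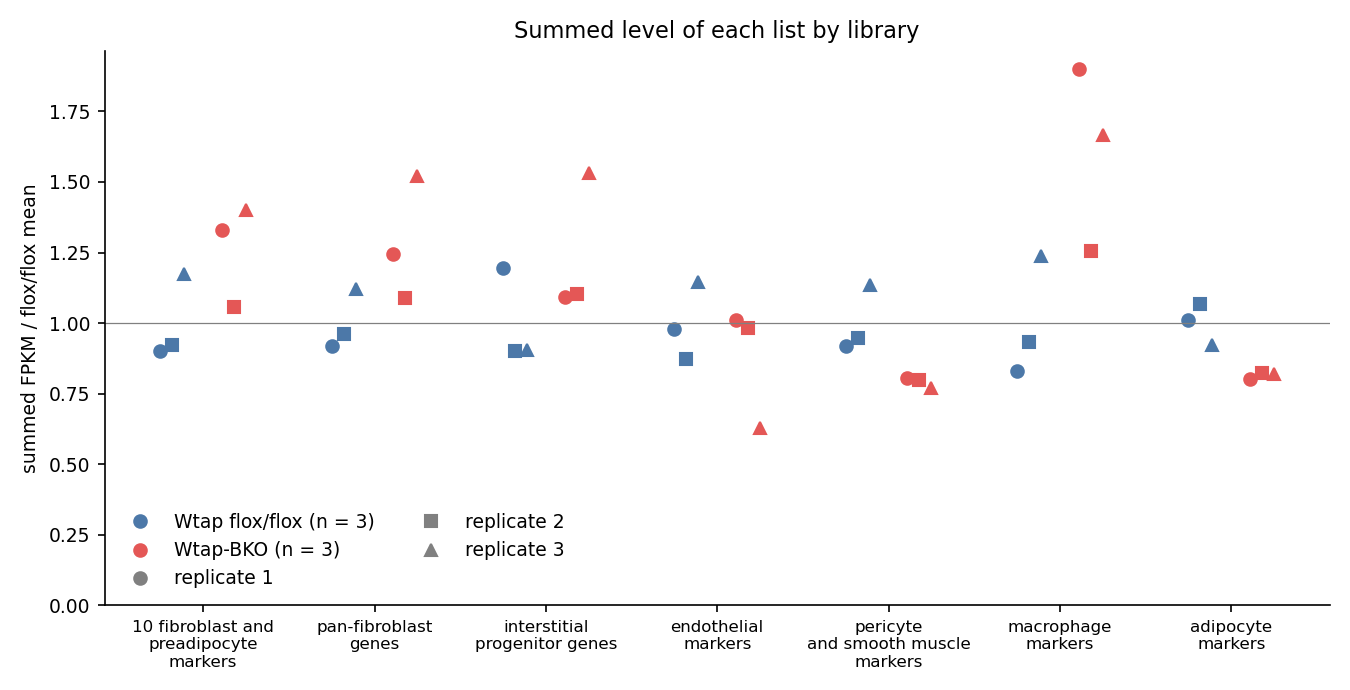
Summed FPKM of each list divided by its flox/flox mean (y axis, from 0), 1 point per library with symbols for the replicate number. The macrophage sums of the 3 Wtap-BKO libraries lie above the controls and the pericyte and smooth muscle and adipocyte sums lie below. Among single genes of the pericyte and adipocyte lists, 3 of 10 and 5 of 11 had a positive change, and Rgs5 and Ucp1 hold most of these gaps. The sums of the 10 markers overlap, with Ly6a, the most abundant marker, as a large part of them.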

How the data were processed

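The members and gene lists were chosen with earlier results of these data known. The authors aligned reads with HISAT2 2.0.5 to GRCm38.p6, counted them per gene with featureCounts 1.5.0-p3 and deposited FPKM values (their tests used DESeq2 1.16.1; submitters' processing notes and methods). The sources used here do not state the strand setting, so reads of the overlapping antisense genes cannot be told apart; those of Dpt, Cd34 and Cd55 held 1 to 30 reads per library. FPKM × length gave whole reads for 100% of values (tolerance 0.01), and the values already carried a scaling between libraries by median of ratios.

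Groups came from the genotype labels. Main test: limma 3.58.1 with trend in R 4.3.3 on log2(FPKM + 0.1), a scale that understates changes of low genes, for genes averaging 0.5 FPKM or more and at least 10 reads, two-sided, Benjamini-Hochberg adjusted over 13507 genes, called under 0.05. The fit was tested on simulated data. The limma p-values set the difference between groups against the spread between the 3 libraries of each group. For this, the variance of each gene was drawn toward that of genes of similar level. Replicates of each group differed beyond sampling noise. The genes named were the 10 markers, Wtap and Ucp1 and, from each other list, the 2 tested genes with the smallest p (1 of these is not reported here); Sema3c, Dlk1, Cd55b, Pdgfa and Pdgfb were added after their values were seen, and the promoter motifs were likewise chosen then. Start-site windows came from RefSeq. Ratios to Pdgfra used an exact permutation test. Alternatives: pseudocounts of 1 and 0.01, no filter or 2 FPKM, library size or upper quartile scaling, voom, a robust prior, unadjusted p, a replicate block and left-out libraries.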

Additional observations from a re-analysis of the deposited data

How the results depend on the processing

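Each of 17 alternatives to the main fit was computed. Dpt kept its direction in all 17 and its call in 15, and Cd55 its direction in all and its call in 12. Not every alternative could change these outcomes. The unadjusted p could not end a call made after adjustment. The changes of filter, the robust prior, the unadjusted p and the replicate block reuse the main log2 change, so they could not turn a direction. The number of called markers was 2 in the main fit, 1 with no filter on low values, 5 at an unadjusted p, 0 to 3 when 1 library was left out, and 0 with both muscle-holding libraries left out. Of the genes on the other lists, 16 were called in the main fit, 4 with no filter, 44 at an unadjusted p, 0 without both muscle-holding libraries (19 higher and 7 lower at an unadjusted p) and 2 to 17 when 1 library was left out. Over all genes, called higher and lower were 824 and 524 in the main fit, 442 and 245 with no filter, 2116 and 1781 at an unadjusted p, and 0 and 0 without both muscle-holding libraries. With library size alone they were 1113 and 310, and when 1 library was left out 229 to 851 and 93 to 425. Under a replicate block, which pairs libraries by number, 2 markers, 3 genes of the other lists and 211 higher and 97 lower genes were called; Dpt (adjusted p = 0.0354) and Cd55 (0.0389) kept their calls and Wtap (0.0711) lost its own. The deviations of same-numbered libraries from their group means had correlations of -0.05, -0.40 and -0.27. The largest correlation between groups, 0.56, was that of both muscle-holding libraries. With 3 libraries per group these values cannot decide whether libraries of the same number were paired. Directions turned for Cd34 (log2 change -0.293 to 0.0417 when 1 library was left out), for Ly6a (-0.12 to 0.16, and 0.0701 with library size alone) and for Bmper (-0.0630 without both muscle-holding libraries). They also turned for the T cell gene Lck (-0.61 to 0.24, and 0.12 without both) and for the muscle genes Acta1 (-1.26 to 4.45) and Tnni2 (-1.53 to 3.66), none of which was called. The causes were not tested. Dpp4 rests on 30 to 152 reads per library.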
